A study of Mus musculus with 6 samples.

Results

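The T cell receptor complex and the signalling proteins that act directly on it were followed through 10 genes in macrophages sorted from rejecting and treated mouse heart grafts. The genes had been listed by function, with earlier results of these data known. They were the CD3 chains Cd3d, Cd3e, Cd3g and Cd247, the kinases Zap70 and Lck, and the adaptor Lat. The others were the surface proteins Cd2, Cd5 and Cd6. Each gene was read from probe sets that carry exactly 1 gene symbol, and 8 of the 10 were found there, among 22180 such genes. Cd247 and Lck were not analysed here. Each of the 8 had 1 probe set, so no choice between probe sets entered.

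The samples were 3 from C57BL/6 recipients given mTORi-HDL, an inhibitor of the kinase mTOR packed into lipoprotein (HDL) particles, in doses of 5 mg/kg given on the day of transplantation (day 0), day 2 and day 5, and 3 from C57BL/6 recipients left untreated, which rejected their grafts. All hearts came from fully mismatched BALB/c donors, and the macrophages were taken on day 6. None of the samples had the lipoprotein without the inhibitor, so the 2 cannot be told apart, and the sources used here give neither the age and sex of the mice nor the markers of the sort. The labels do not say whether a sample is 1 animal or a pool, so p-values measure the spread between these samples.

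The T cell receptor itself binds peptide on MHC molecules and has no enzyme activity. Its CD3 chains carry tyrosine motifs that Lck phosphorylates, Zap70 docks on these, and Zap70 in turn phosphorylates the scaffold Lat, from which calcium and Ras signals start. These proteins are hallmarks of T cells. Zap70, Lat and Cd2 are also found in natural killer (NK) cells, Lat in mast cells and platelets, and Cd5 in a subset of B cells. In heart allografts, T cells that recognise donor antigen drive acute rejection.

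Cd3g and Cd3d lie head to head on chromosome 9, with start sites 1355 bases apart, and are shown because these neighbours were both measured. The 250 bases before each start site follow, from RefSeq on GRCm38.p6. Cd3g lies on the minus strand at chr9:44980432-44980681, and Cd3d on the plus strand at chr9:44981536-44981785. Capitals mark matches to any of 4 motifs searched on both strands, TGTGGT of Runx factors, GGAAGT of Ets factors, CAGCTG of E proteins and the TATA box TATAAA.
Cd3g: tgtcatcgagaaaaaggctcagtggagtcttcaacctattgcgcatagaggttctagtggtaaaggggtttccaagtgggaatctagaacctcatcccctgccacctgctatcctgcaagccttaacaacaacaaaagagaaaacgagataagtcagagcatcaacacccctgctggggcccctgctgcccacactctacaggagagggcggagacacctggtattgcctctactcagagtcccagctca
Cd3d: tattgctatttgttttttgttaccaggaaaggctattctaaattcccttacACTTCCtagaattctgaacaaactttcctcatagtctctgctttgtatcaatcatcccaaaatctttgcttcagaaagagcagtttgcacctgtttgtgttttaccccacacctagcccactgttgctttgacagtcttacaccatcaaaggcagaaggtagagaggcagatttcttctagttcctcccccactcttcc
The Cd3d window held 1 match, GGAAGT on the opposite strand, starting 199 bases before the start site, and the Cd3g window held none of the 4, so no matches overlapped. RefSeq promoters were found for 6 of the 8 measured genes, with 8 start sites in all. GGAAGT was present in 4 of these 8 windows (1 each of Cd3d, Cd3e, Cd5 and Zap70), where 19.7% of 32851 promoters of the same length held it. TGTGGT was present in 1 of the 8, for Zap70, against 14.1% of all promoters. CAGCTG and TATAAA were in 0 of the 8, against 13.0% and 12.4% of all promoters. Such matches describe the letters only.

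One of the treated arrays, mTORi-HDL 1, differed from the others as a whole. Its correlation with the other arrays over probe sets was 0.708 to 0.741, where the others correlated with each other at 0.892 to 0.912. The slope of its gene values on the mean of the other 5 arrays was 0.583, and the same slope for each other array was 1.05 to 1.10. Values are therefore given with and without it. The lower and upper quartiles of the gene values on the 6 arrays lay between 3.12 and 5.53 on the log2 scale.

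All 8 measured genes of the receptor complex had lower levels in the mTORi-HDL samples, and on each array of that group each gene lay below all 3 untreated arrays. This separation held for 8 of 8 genes, where 5.53% of all 22180 genes had every mTORi-HDL array below every untreated array. The median log2 fold change of the 8 was -1.51, that is 2.85-fold lower, beside a median of 0.08 over all genes. Without mTORi-HDL 1 the median was -0.97, or 1.96-fold lower, beside -0.03 over all genes. All 8 again lay below the untreated arrays, where 12.5% of all genes did so. All genes with a lower mean made up 41.8% of those tested with all 6 arrays and 53.4% without mTORi-HDL 1. These shares are over genes of any brightness. The 11090 genes of at least median brightness, the 8 among them, had a median log2 fold change of -0.12 with all 6 arrays. As the list was made with earlier results known, the 8 were not tested as a set.

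None of the 8 passed limma's test over all genes at an adjusted p of 0.05, and neither did any other gene (0% called with all arrays and 0% without mTORi-HDL 1). Adjusted p ran from 0.696 to 0.890 with all 6 arrays and from 0.230 to 0.704 without mTORi-HDL 1. At an unadjusted p under 0.05, 7 of the 8 were lower with all 6 arrays, where 3.07% of all genes were, and 8 of 8 without mTORi-HDL 1, where 3.51% were. Cd2 was the gene that missed it with all 6 arrays. Of all 1029 genes at that level with all 6 arrays 66.1% were lower. Of the genes at that level in 2 other fits, 53.8% were lower after cyclic loess normalization and 50.3% without mTORi-HDL 1. In a fit of the 11090 genes of at least median brightness on all 6 arrays, 78.3% of those at that level were lower. With 3 arrays a group, an exact two-sided permutation test of 1 gene cannot go below p = 0.1. Bulk samples of sorted cells do not show which cells held these transcripts. A changed share of any such cells and a changed level per cell cannot be told apart.

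**Figure D1:**
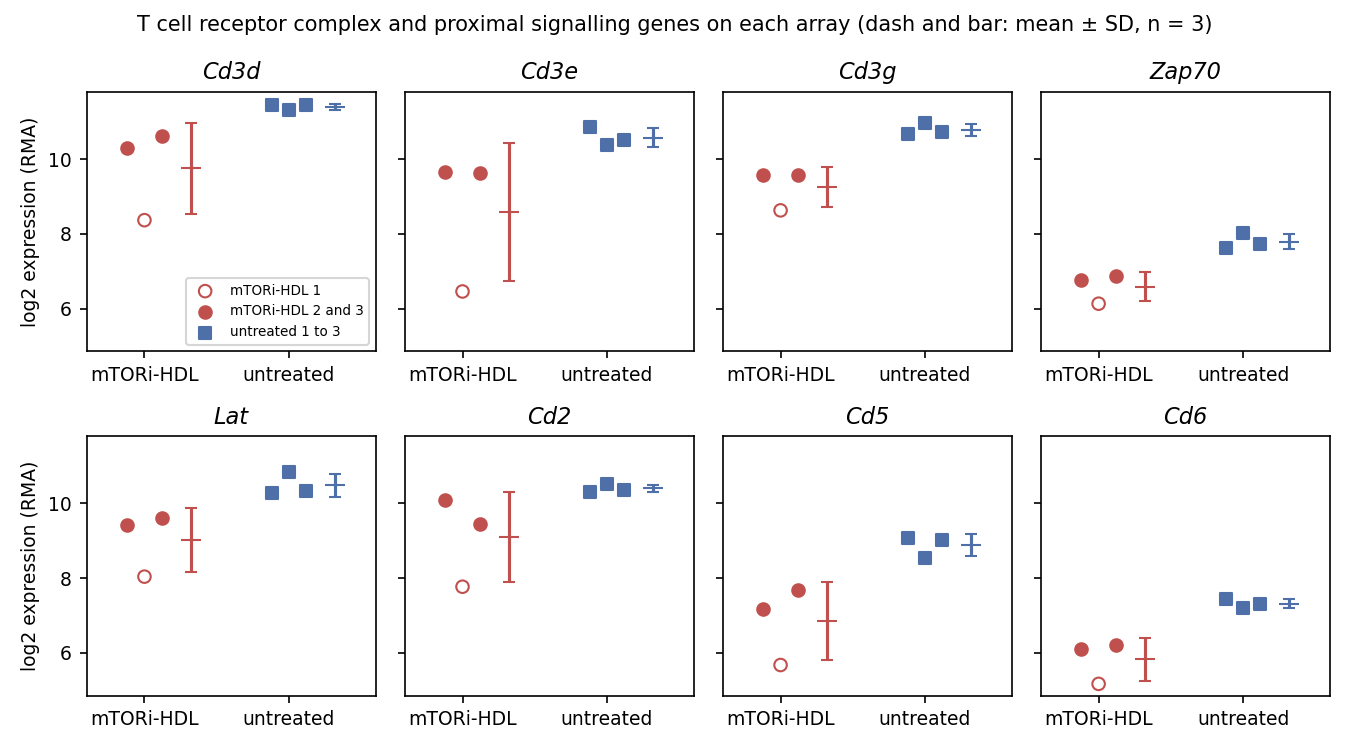
Log2 expression (y axis) of the 8 measured genes on each array, with mTORi-HDL samples on the left and untreated samples on the right of each panel. Open circles are mTORi-HDL 1, filled circles mTORi-HDL 2 and 3, squares the untreated arrays, and dashes with bars the mean ± SD (n = 3). In each of the 8 panels the mTORi-HDL points lie below the untreated points, and the open circle is the lowest.

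The CD3 chains hold the receptor at the surface and carry its signalling motifs. Cd3d, the delta chain, had log2 levels of 8.37, 10.29 and 10.62 on the mTORi-HDL arrays 1, 2 and 3, against 11.45, 11.31 and 11.45 on the untreated arrays. Its treated arrays 2 and 3 lay within 0.33 of each other and below the tight untreated group, while mTORi-HDL 1 lay further down. Between groups the log2 fold change of Cd3d was -1.64 ± 0.57 (SE) over all 6 arrays (limma, adjusted p = 0.89) and -0.94 ± 0.22 without mTORi-HDL 1 (adjusted p = 0.389).

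Cd3e, the epsilon chain that pairs with both of the others, had log2 levels of 6.46, 9.67 and 9.63 on the mTORi-HDL arrays 1, 2 and 3, against 10.85, 10.37 and 10.50 on the untreated arrays. Arrays 2 and 3 were nearly equal, and mTORi-HDL 1 stood at -4.12 relative to the untreated mean, further than for any other of the 8 genes on any array. The log2 fold change of Cd3e was -1.99 ± 0.82 (SE) over all 6 arrays (limma, adjusted p = 0.89) and -0.93 ± 0.24 without mTORi-HDL 1 (adjusted p = 0.418), so that the size of the estimate rested largely on this 1 array.

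Cd3g, the gamma chain, had log2 levels of 8.63, 9.57 and 9.56 on the mTORi-HDL arrays 1, 2 and 3, against 10.66, 10.96 and 10.74 on the untreated arrays. The 3 treated arrays were closer together than for Cd3d or Cd3e, with a gap of 1.09 between the highest of them and the lowest untreated array. For Cd3g the log2 fold change was -1.53 ± 0.34 (SE) over all 6 arrays (limma, adjusted p = 0.696) and -1.22 ± 0.22 without mTORi-HDL 1 (adjusted p = 0.23), which ranked it 67 among the 22180 genes by p with all 6 arrays, first among the 8.

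The kinase and the scaffold that relay the signal differed in the same direction. Zap70, the kinase that binds phosphorylated CD3 chains, had log2 levels of 6.13, 6.77 and 6.87 on the mTORi-HDL arrays 1, 2 and 3, against 7.63, 8.03 and 7.72 on the untreated arrays. Its treated arrays spanned less than those of the other 7 genes, with an SD of 0.40, and none reached the untreated range. The log2 fold change of Zap70 was -1.20 ± 0.30 (SE) over all 6 arrays (limma, adjusted p = 0.799) and -0.97 ± 0.23 without mTORi-HDL 1 (adjusted p = 0.386).

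Lat, the membrane scaffold phosphorylated by Zap70, had log2 levels of 8.04, 9.42 and 9.62 on the mTORi-HDL arrays 1, 2 and 3, against 10.28, 10.84 and 10.33 on the untreated arrays. The highest treated array lay 0.66 below the lowest untreated array, and untreated 2 stood above the other untreated arrays. Its log2 fold change was -1.46 ± 0.45 (SE) over all 6 arrays (limma, adjusted p = 0.89) and -0.96 ± 0.26 without mTORi-HDL 1 (adjusted p = 0.446).

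Surface proteins tune the receptor's signal. Cd2, an adhesion receptor that strengthens contact with the antigen-presenting cell, had log2 levels of 7.77, 10.09 and 9.45 on the mTORi-HDL arrays 1, 2 and 3, against 10.32, 10.52 and 10.37 on the untreated arrays. Array mTORi-HDL 2 came within 0.23 of the lowest untreated array, the narrowest gap of the 8 genes. The log2 fold change of Cd2 was -1.30 ± 0.56 (SE) over all 6 arrays (limma, adjusted p = 0.89) and -0.63 ± 0.26 without mTORi-HDL 1 (adjusted p = 0.704), and its 95% interval with all 6 arrays, -2.61 to 0.01, included 0.

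Cd5, an inhibitory scavenger-type receptor whose level follows the strength of receptor signalling during T cell development, had log2 levels of 5.67, 7.17 and 7.68 on the mTORi-HDL arrays 1, 2 and 3, against 9.08, 8.54 and 9.02 on the untreated arrays. All 3 treated arrays were well below the untreated ones, and of the 8 genes Cd5 had the largest difference in both fits. In the fits its log2 fold change was -2.04 ± 0.52 (SE) over all 6 arrays (limma, adjusted p = 0.819) and -1.45 ± 0.28 without mTORi-HDL 1 (adjusted p = 0.27).

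Cd6, a relative of Cd5 that binds the adhesion molecule ALCAM, had log2 levels of 5.17, 6.11 and 6.22 on the mTORi-HDL arrays 1, 2 and 3, against 7.45, 7.21 and 7.30 on the untreated arrays. The untreated arrays lay within 0.25 of each other and the highest treated array 0.99 below them. The log2 fold change of Cd6 was -1.49 ± 0.34 (SE) over all 6 arrays (limma, adjusted p = 0.696) and -1.16 ± 0.21 without mTORi-HDL 1 (adjusted p = 0.241).

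**Figure D2:**
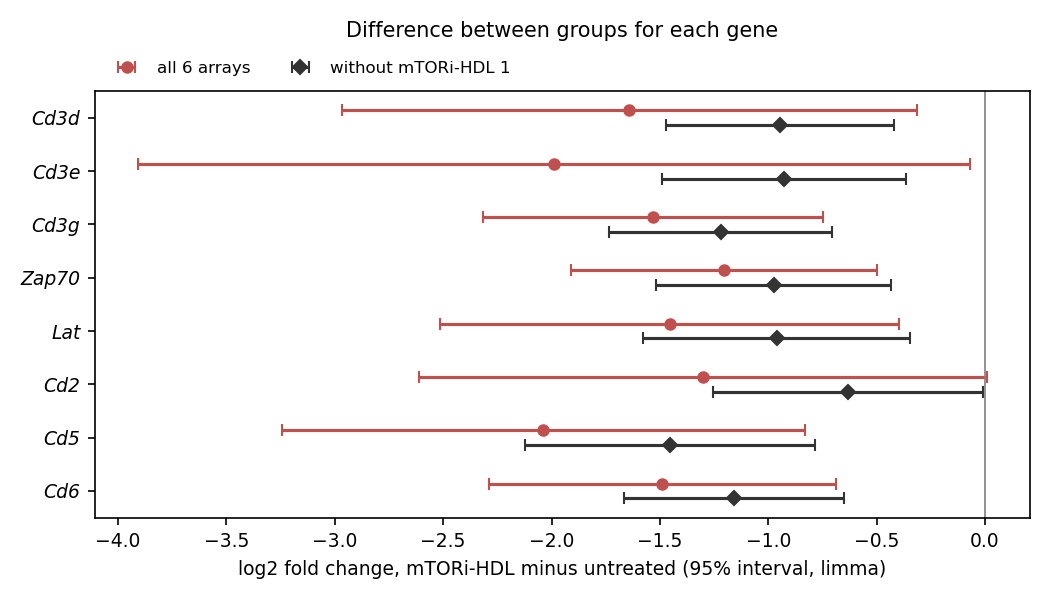
Log2 fold change (x axis, mTORi-HDL minus untreated) of each of the 8 genes with limma's 95% interval, over all 6 arrays (circles) and without mTORi-HDL 1 (diamonds). All 16 estimates are below 0, and 15 of the 16 intervals exclude it, the exception being Cd2 with all 6 arrays.

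The shifts of the 8 genes were closest to each other, among the treated arrays, on mTORi-HDL 3. Relative to each gene's untreated mean, the shifts on mTORi-HDL 3 ran from -1.22 (Cd3g) to -0.78 (Cd3d), with an SD over the 8 genes of 0.16. On mTORi-HDL 2 they ran from -1.71 (Cd5) to -0.32 (Cd2), with an SD of 0.39, wider than on any untreated array. The untreated arrays had SDs of 0.09 to 0.24 over the same genes. The untreated mean contains these arrays, which makes their own shifts smaller, so the SDs of the 2 groups are not like for like. On mTORi-HDL 1 the shifts were larger and more uneven, from -4.12 (Cd3e) to -1.66 (Zap70), with an SD of 0.77. Each gene's shift was also taken relative to the mean shift of the 8 on the same array. The groups then overlapped for 8 of 8 genes with all 6 arrays. Overlap of 3 arrays with 3 cannot show that no gene stood apart. Cd5 lay at -0.53, -0.64 and -0.20 on the mTORi-HDL arrays 1, 2 and 3, against -0.35 to 0.19 in untreated samples. Without mTORi-HDL 1, Cd3g alone did not overlap, at -0.15 and -0.22 against -0.14 to 0.16 in untreated samples. The nearest values were almost equal, -0.148 on mTORi-HDL 2 and -0.136 on untreated 1. With 2 arrays against 3, 12.5% of all genes lay lower without overlap before such centring, so this does not set Cd3g apart.

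**Figure D3:**
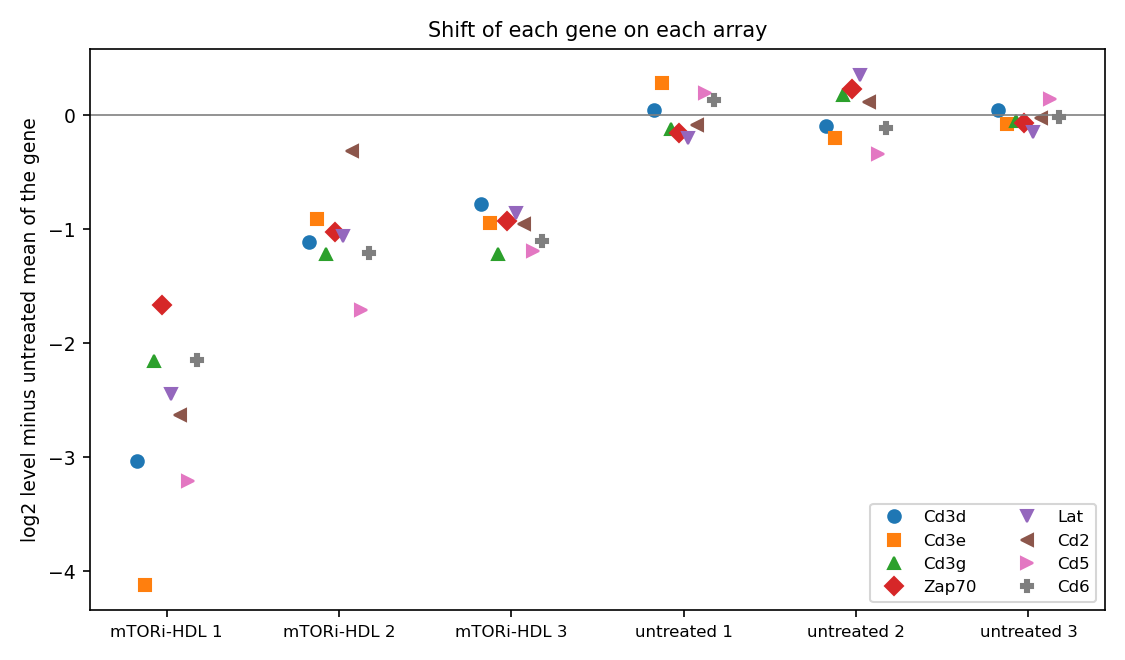
Log2 level of each of the 8 genes minus its untreated mean (y axis) on each of the 6 arrays (x axis), one symbol per gene. The genes run from -1.22 to -0.78 on mTORi-HDL 3, from -1.71 to -0.32 on mTORi-HDL 2 and from -4.12 to -1.66 on mTORi-HDL 1.

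The wider receptor pathway was read through lists of other genes, of which 64 of 75 were measured. None of the 64 passed limma's adjusted threshold in either fit, and 16 were lower and 0 higher at an unadjusted p under 0.05 with all 6 arrays, against 13 and 0 without mTORi-HDL 1. Over all genes, 3.07% were lower and 1.57% higher at that level with all 6 arrays. Without mTORi-HDL 1 these shares were 3.51% and 3.47%. The 7 receptor constant-region genes, Trac, Trbc1 and Trbc2 among them, were not analysed here.

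All 13 coreceptor and costimulation genes had a lower mean, 8 of them at an unadjusted p under 0.05 with all 6 arrays and 7 without mTORi-HDL 1. Over all genes, 3.07% and 3.51% were lower at that level. The median log2 fold change of the list was -1.37 with all 6 arrays and -0.78 without mTORi-HDL 1. Cd4, the coreceptor of helper T cells, had log2 levels of 3.08, 6.32 and 6.41 on the mTORi-HDL arrays 1, 2 and 3, against 7.78, 7.62 and 8.22 on the untreated arrays. Its level on mTORi-HDL 1 lay under that array's lower quartile of gene values, 3.68, so no fold change with that array is given. Without mTORi-HDL 1 the log2 fold change was -1.51 ± 0.25 (SE; limma, adjusted p = 0.204), and the groups did not overlap.

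The 2 chains of the coreceptor of cytotoxic T cells differed on mTORi-HDL 1. Cd8a had log2 levels of 6.30, 8.01 and 8.47 on the mTORi-HDL arrays 1, 2 and 3, against 9.01, 9.98 and 8.41 on the untreated arrays. Cd8b1 had log2 levels of 9.52, 7.99 and 8.46 on the mTORi-HDL arrays 1, 2 and 3, against 9.53, 9.66 and 8.72 on the untreated arrays. On mTORi-HDL 1 Cd8b1 was thus inside the untreated range while Cd8a, Cd4 and the 8 receptor genes were below theirs. Without that array the log2 fold changes were -0.90 for Cd8a, whose groups overlapped, and -1.08 for Cd8b1, whose groups did not (limma, adjusted p = 0.782 and 0.547). Cd28, the main costimulatory receptor, had log2 fold changes of -1.74 with all 6 arrays and -1.23 without mTORi-HDL 1, and Cd27, a costimulatory receptor of the TNF receptor family, had -2.33 with all 6 arrays and -1.58 without mTORi-HDL 1. Sh2d1a, an adaptor of the SLAM receptors, had log2 fold changes of -1.70 with all 6 arrays and -1.12 without mTORi-HDL 1. The groups did not overlap for Cd28, Cd27 or Sh2d1a in either fit, but these genes, like Cd4, were picked for the smallest p of the list. Of its 13 genes, 7 lay lower without overlap with all 6 arrays and 8 without mTORi-HDL 1. Over all genes, 5.53% and 12.5% did so.

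The next list held other kinases, adaptors and calcium genes of the pathway. Of 33 measured, 30 had a lower mean with all 6 arrays, with a median log2 fold change of -0.77, and 24 did without mTORi-HDL 1, with a median of -0.09. At an unadjusted p under 0.05, 5 were lower with all 6 arrays (Plcg1, Grap, Def6, Stim1 and Was, the last named after its values were seen) and 2 without mTORi-HDL 1, Plcg1 and Grap. Over all genes, 3.07% and 3.51% were lower at that level. Beside the latter share, 2 of 33 does not set this list apart. Plcg1, the phospholipase recruited to Lat, had log2 levels of 3.75, 4.91 and 4.68 on the mTORi-HDL arrays 1, 2 and 3, against 5.50, 5.86 and 5.80 on the untreated arrays. Grap, a Grb2-related adaptor, had a log2 fold change of -0.70 without mTORi-HDL 1. Its level on mTORi-HDL 1, 3.55, lay under that array's lower quartile of gene values, 3.68. No fold change of Grap with that array is therefore given, though it is counted among the 5. Fyn, a kinase related to Lck, had log2 fold changes of -1.11 with all 6 arrays and -0.44 without mTORi-HDL 1. Its groups did not overlap, but mTORi-HDL 2 lay only 0.018 below the lowest untreated array. The unadjusted p of Fyn (limma) was 0.089 with all 6 arrays and 0.155 without mTORi-HDL 1.

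Lcp2 and Ptprc of the same list are also used by macrophages. Lcp2, an adaptor known as SLP-76 that partners Lat, had log2 levels of 6.28, 10.04 and 9.57 on the mTORi-HDL arrays 1, 2 and 3, against 9.91, 9.83 and 9.31 on the untreated arrays. Ptprc, the phosphatase CD45 that primes Lck and is carried by all white blood cells, had log2 levels of 6.83, 11.43 and 11.37 on the mTORi-HDL arrays 1, 2 and 3, against 11.41, 11.44 and 11.48 on the untreated arrays. Both genes were within 0.14 of or inside the untreated range on mTORi-HDL 2 and 3 and far below it on mTORi-HDL 1. The log2 fold changes were -1.05 with all 6 arrays and 0.12 without mTORi-HDL 1 for Lcp2 and -1.57 with all 6 arrays and -0.04 without mTORi-HDL 1 for Ptprc. The difference between these genes and the receptor genes was not tested.

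Among 18 negative regulators of the receptor, 16 had a lower mean with all 6 arrays and 15 without mTORi-HDL 1, with median log2 fold changes of -0.81 and -0.42. At an unadjusted p under 0.05, 3 were lower with all 6 arrays and 4 without mTORi-HDL 1, where 3.07% and 3.51% of all genes were. Dgka, a kinase that removes the diacylglycerol made by Plcg1, had log2 levels of 6.25, 6.77 and 7.37 on the mTORi-HDL arrays 1, 2 and 3, against 8.52, 8.22 and 8.42 on the untreated arrays. Ubash3a, a phosphatase-related suppressor of Zap70 signalling, had log2 levels of 4.34, 4.47 and 4.30 on the mTORi-HDL arrays 1, 2 and 3, against 5.92, 5.11 and 5.52 on the untreated arrays. Its treated levels were nearly equal, and near the gene medians of those arrays, 4.38, 4.06 and 4.10. Log2 fold changes were -1.59 with all 6 arrays and -1.32 without mTORi-HDL 1 for Dgka and -1.15 with all 6 arrays and -1.13 without mTORi-HDL 1 for Ubash3a. Dgkz, a relative of Dgka, had -0.83 with all 6 arrays and -0.63 without mTORi-HDL 1, and Ptpn22, a phosphatase acting on Lck and Zap70, had -2.38 with all 6 arrays and -0.91 without mTORi-HDL 1. For each of these 4 regulators the groups did not overlap in either fit, but they were picked for the smallest p of the list. Of all 18, 7 lay lower without overlap with all 6 arrays and 7 without mTORi-HDL 1. Over all genes, 5.53% and 12.5% did so.

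**Figure D4:**
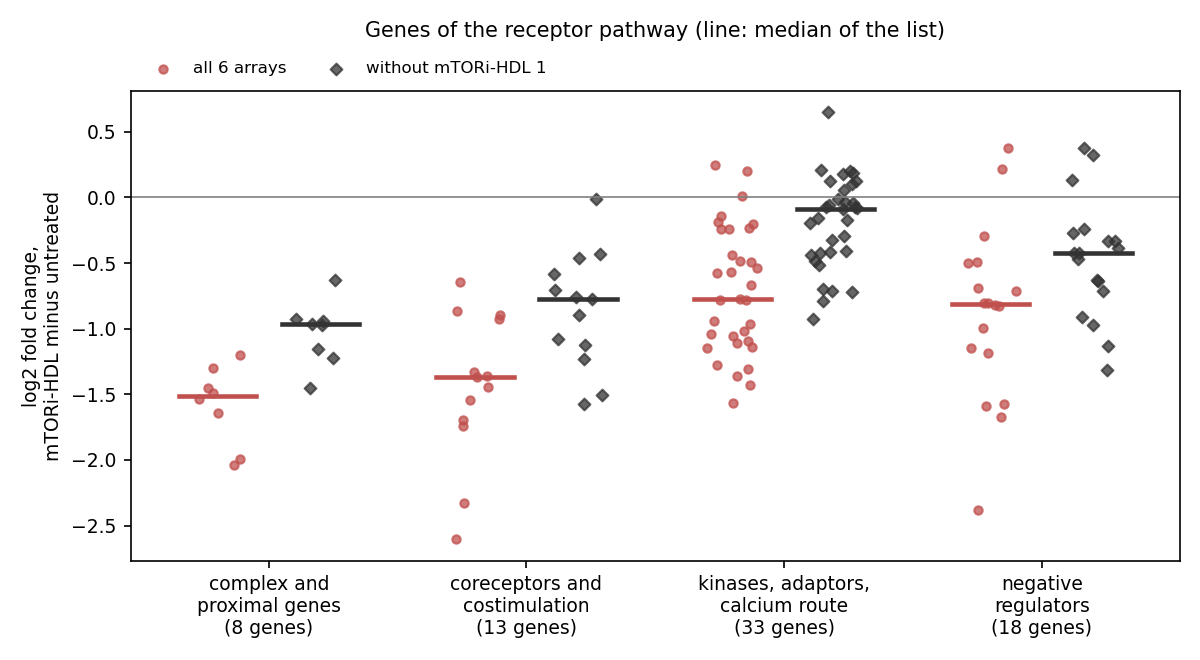
Log2 fold change (y axis, mTORi-HDL minus untreated) of each measured gene in the receptor set and 3 pathway lists (x axis), over all 6 arrays (circles) and without mTORi-HDL 1 (diamonds), with a line at each median. Without mTORi-HDL 1 the medians are -0.97, -0.78, -0.09 and -0.42 from left to right.

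Markers of other cells the sort could hold were read beside these genes, none passed limma's adjusted threshold, and their part in the result was not tested. The median shift of 10 other T cell markers, of which Cd28 and Themis also stand in the pathway lists above, from the untreated mean was -2.43, -0.40 and -0.67 on the mTORi-HDL arrays 1, 2 and 3, and -0.24 to 0.25 on the untreated arrays. Of these 10 markers, 10 had a lower mean with all 6 arrays and 8 without mTORi-HDL 1.

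Macrophage markers lay the other way: 17 of 19 had a higher mean with all 6 arrays and 18 of 19 without mTORi-HDL 1. The mean log2 level of the 19 was 7.47, 8.33 and 8.80 on the mTORi-HDL arrays 1, 2 and 3, against 7.25 to 7.64 on the untreated arrays. Csf1r encodes the receptor for the growth factor M-CSF, and had log2 levels of 5.004, 8.75 and 9.08 on the mTORi-HDL arrays 1, 2 and 3, against 8.19, 7.54 and 7.93 on the untreated arrays. Adgre1, the surface protein F4/80, had 4.93, 7.42 and 8.72 on the mTORi-HDL arrays 1, 2 and 3, against 7.12, 6.05 and 6.84 on the untreated arrays. Csf1r and Adgre1 were thus above the untreated range on the treated arrays 2 and 3 and below it on mTORi-HDL 1, where the receptor genes were also at their lowest. Cd68, a lysosomal macrophage protein, had log2 levels of 9.47, 10.87 and 10.87 on the mTORi-HDL arrays 1, 2 and 3, against 9.60, 9.70 and 8.78 on the untreated arrays, and was inside the untreated range on mTORi-HDL 1.

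The 10 NK cell markers had a mean log2 level of 6.83, 8.24 and 8.08 on the mTORi-HDL arrays 1, 2 and 3, against 8.12 to 8.75 on the untreated arrays, and 9 of 10 had a lower mean with all 6 arrays and 6 of 10 without mTORi-HDL 1. Ncr1, the NK receptor NKp46, had log2 levels of 5.70, 7.98 and 8.17 on the mTORi-HDL arrays 1, 2 and 3, against 7.998, 6.73 and 7.31 on the untreated arrays, which overlapped. The 8 B cell markers had a mean log2 level of 5.91, 6.51 and 6.15 on the mTORi-HDL arrays 1, 2 and 3, against 6.54 to 6.73 on the untreated arrays, with 7 lower with all 6 arrays and 6 without mTORi-HDL 1. Their median shift from the untreated mean was -0.70, -0.17 and -0.73 on the mTORi-HDL arrays 1, 2 and 3, and -0.17 to 0.08 on the untreated arrays. That of the NK cell markers was -1.61, -0.02 and -0.27, and -0.28 to 0.39. On mTORi-HDL 3 the B cell markers were thus shifted about as far as the other T cell markers, at -0.67. Of the other cells known to hold Lat, mast cells had 6 of 7 markers with a higher mean with all 6 arrays and 5 of 7 without mTORi-HDL 1, and platelets 4 of 5 and 2 of 5. At an unadjusted p under 0.05 (limma), 3 mast cell and 0 platelet markers were higher in each fit. Over all genes, 1.57% were with all 6 arrays and 3.47% without mTORi-HDL 1. Both lists were dim, with mean log2 levels over the arrays of 3.40 to 4.56 for mast cells and 4.01 to 5.24 for platelets. The gene medians of the arrays were 4.03 to 4.38. Cpa3, a protease of mast cells, had log2 levels of 4.11, 3.19 and 6.98 on the mTORi-HDL arrays 1, 2 and 3, against 4.83, 3.55 and 3.36 on the untreated arrays. Mcpt4 of the same list, named after its values were seen, had 2.33, 5.01 and 5.43 on the mTORi-HDL arrays, against 2.41, 2.93 and 2.67.

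**Figure D5:**
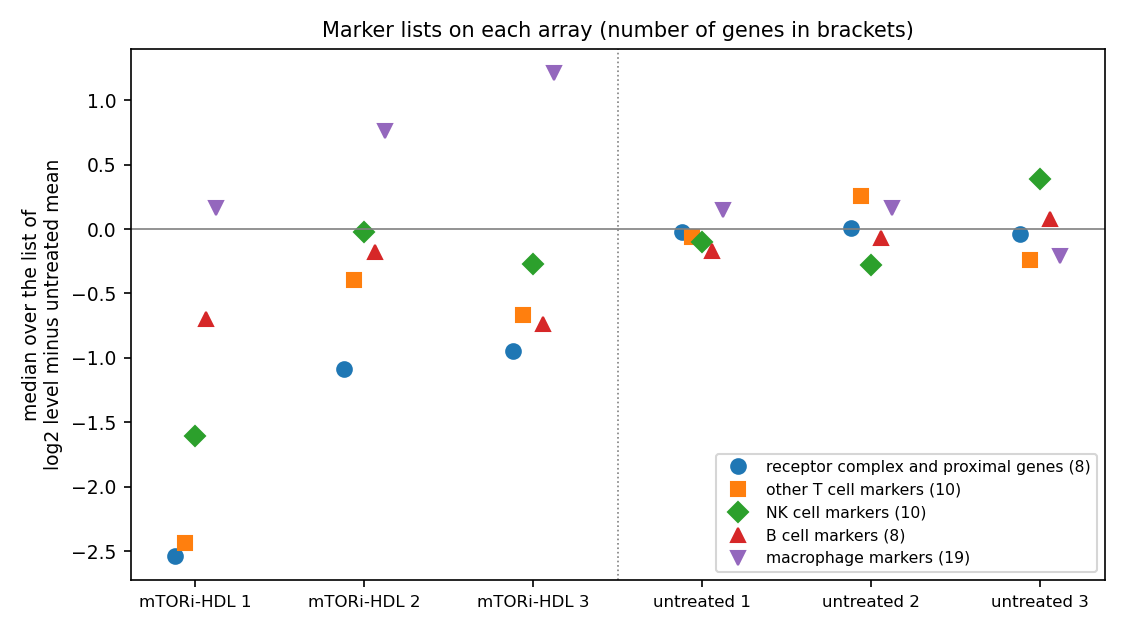
Median over each marker list of the log2 level minus the untreated mean (y axis) on each array (x axis), with the number of genes in brackets. On mTORi-HDL 2 and 3 the receptor genes (circles) lie at -1.08 and -0.95, and macrophage markers (downward triangles) at 0.76 and 1.21.

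The genes whose values were most like the mean of the 8 over the 6 arrays were ranked by Pearson's r among 18641 named genes, as a description. The closest was Cd96, a receptor of T and NK cells that also stands in the costimulation list, with r = 0.995 over 6 arrays and 0.981 over 5. Mcm4, a subunit of the replicative helicase, followed with 0.995 and 0.983. Gak, Tbcb, Strbp, Ubac2, Arhgap1 and Gosr1 had r of 0.990 to 0.994 over 6 arrays and 0.962 to 0.996 over 5. All points share the low array mTORi-HDL 1 and the step between the groups, and 794 genes had r over 0.9. Mcm4 had log2 levels of 4.16, 6.17 and 6.55 on the mTORi-HDL arrays 1, 2 and 3, against 8.02, 7.71 and 7.91 on the untreated arrays, and Cd96 had 6.14, 7.10 and 7.05 on the mTORi-HDL arrays 1, 2 and 3, against 7.65, 7.75 and 7.57 on the untreated arrays.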

How the data were processed

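RNA of sorted macrophages from 3 mTORi-HDL and 3 untreated recipients was hybridised to 1 array each after amplification of 15 ng, per the labels. The authors deposited log2 expression values for 41345 probe sets, which per the submitters' processing notes (no versions) come from RMA in Affymetrix Expression Console. Genome build and filters are not given in the sources used here. Arrays have no read depth, and their number limits the precision. There were 0 missing values and 0 identical pairs among 15 pairs of arrays.

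The platform annotation gave 23521 probe sets 1 symbol, 1814 several and 16010 none. Those with 1 symbol were used, the brightest over the 6 arrays per gene, which left 22180 genes. The comparison used limma 3.58.1 (R 4.3.3) with functions lmFit and eBayes (4 residual degrees of freedom, 3 without mTORi-HDL 1; Benjamini-Hochberg over all genes, two-sided), checked on simulated data. Fold changes are mTORi-HDL minus untreated on the log2 scale.

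The members and lists were chosen with earlier results of these data known. Named were the 8 genes, up to 4 genes per pathway list with the smallest p, a fixed panel, defining markers and the 8 genes of highest r. Panel genes Trac, Trbc1 and Trbc2 were not analysed here, and some other panel genes are not reported here. Same-numbered samples had correlated deviations of 0.14, 0.13 and -0.02 over all genes and were not treated as pairs. Alternatives were 3 normalizations, a filter at median brightness, trended and robust eBayes, array weights, a replicate block, each array left out, the mean of probe sets, and 1 combination.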

Additional observations from a re-analysis of the deposited data

How the results depend on the processing

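Under each of the 15 alternatives tried, all 8 genes kept a lower mean and 0 passed the adjusted threshold. Their 120 fold changes under alternatives ran from -2.53 to -0.58, with limma's adjusted p from 0.138 to 0.9998. As the groups did not overlap for any of the 8, leaving out or weighting arrays could not turn a sign. The filter, trended eBayes, the replicate block and the mean of probe sets leave these fold changes as they were. Only the normalizations could have turned a sign. Over all genes the count past the threshold was 0 in the values reported and 1 with array weights. The median of the 8 was -1.33 after quantile normalization, -1.10 after cyclic loess and -1.05 with array weights, which gave mTORi-HDL 1 a weight of 0.15 against 1.23 to 1.86 for the others. With each array left out it ran from -1.74 to -0.97, and the count at an unadjusted p under 0.05 from 5 to 8. That count was 5 without any 1 of the untreated arrays. With the replicate block it was 8, the median was -1.51 and 0 passed. mTORi-HDL 3 correlated best with untreated 2, so not each sample correlated best with its own number. The groups overlapped for 1 of the 8 genes after cyclic loess.

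The counts of pathway genes lower at an unadjusted p under 0.05 moved by over 1.5 times as follows. Coreceptor and costimulation genes numbered 5 after median centring and 4 with trended eBayes, against 8. Kinase, adaptor and calcium genes numbered 3 after cyclic loess, 2 with trended eBayes and 1 with quantile normalization without mTORi-HDL 1, against 5. Negative regulators numbered 5 with the replicate block, against 3, and all pathway genes 8 with trended eBayes, against 16. With each array left out these counts ran from 4 to 10, from 1 to 7, from 2 to 8 and from 8 to 23, in that order. Without any 1 of the untreated arrays the coreceptor count was 4 and that of all pathway genes 8. The kinase count was 2, 1 and 2 without untreated 1, 2 and 3, 2 without mTORi-HDL 1 and 3 without mTORi-HDL 3. The negative regulators numbered 6 without mTORi-HDL 2 and 8 without mTORi-HDL 3. The cause was not tested.

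Signs turned for single genes outside the 8. Ncr1 had log2 fold changes of 0.28 after quantile normalization, 0.56 after cyclic loess, 0.62 with array weights and 0.71 with quantile normalization without mTORi-HDL 1, and Csf1r had 0.34, 0.86 and 1.003 under the last 3. Gak had 0.091 and 0.18 after quantile normalization and cyclic loess, and Lcp2 0.057 with quantile normalization without mTORi-HDL 1. With each array left out in turn Ncr1 ran from -0.51 to 0.73, Csf1r from -1.01 to 1.03, Lcp2 from -1.76 to 0.12, Adgre1 from -0.50 to 1.40 and Cpa3 from -0.27 to 1.63.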

Other observations

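Lists of other cells were read in the same samples. Among 7 fibroblast markers, 6 had a higher mean in mTORi-HDL samples in both fits. Dendritic cell markers were higher for 5 of 7 with all 6 arrays and 6 of 7 without mTORi-HDL 1. Neutrophil markers were higher for 5 of 7 with all 6 arrays and 3 of 7 without mTORi-HDL 1, and cardiomyocyte markers for 5 of 6 and 3 of 6. None of these genes passed limma's adjusted threshold in either fit. At an unadjusted p under 0.05 with all 6 arrays, 3 fibroblast, 2 dendritic cell (1 of them lower), 0 neutrophil and 1 cardiomyocyte markers were found. Over all genes, 3.07% were lower and 1.57% higher at that level.

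The inhibitory NK and T cell receptor Klrg1, named after its values were seen, was the 1 NK cell marker at an unadjusted p under 0.05 in both fits. Its log2 levels were 3.14, 4.07 and 3.78 on the mTORi-HDL arrays 1, 2 and 3, against 5.19, 5.87 and 6.23 on the untreated arrays, and its groups did not overlap. The level of Klrg1 on mTORi-HDL 1 lay under that array's lower quartile of gene values, 3.68.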
